A study of Mus musculus with 2 samples.

Results

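In activated regulatory T cells, 1378 of 21938 protein-coding genes (6.28%) had a weak accessible region at the promoter and no region there that passed the reproducibility threshold. Accessible chromatin was measured by ATAC-seq, in which a transposase inserts adapters into open DNA. The deposited peak lists rank peaks by irreproducible discovery rate (IDR), which is low where a pair of inputs ranks a peak both high and alike. Rows that overlapped in the pseudoreplicated list were joined to a region, with signal and summit read from the strongest of them. A weak promoter region overlapped no row of the IDR thresholded list (IDR of 0.05 or below) and had its summit within 1000 bp of a transcription start site (TSS) of a protein-coding gene. There were 4078 such regions. Of these, 1652 lay at the 1378 genes with no thresholded region within 1000 bp of any TSS, called weak-only genes here. The other 2426 lay only at genes that also had a thresholded region.

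The cells came from male mice aged 4 months that carry the Foxp3CreERT2 and Rosa26YFP alleles, and all samples share this genotype, sex and age. The first allele places an inducible Cre recombinase under Foxp3, the factor that defines regulatory T cells, and the second holds a YFP reporter. The labels give the cells as primary cells that originated from bone marrow hematopoietic cells. The 2 libraries are technical replicates 1 and 2 of biological replicate 1 and were joined in 1 alignment before the lists were made. No value therefore has a replicate behind it, no other group exists, and the read depth is unknown. Intervals given for shares are Wilson 95% intervals and cover counting error only. In a bulk sample, fewer cells with an open promoter and less opening per cell cannot be told apart. Beside 49.1% of all protein-coding genes, a thresholded promoter region was present at 16 of 19 regulatory T cell markers and 18 of 20 pan-T genes. The counts were 6 of 14 for CD8 and cytotoxic, 6 of 20 for B cell and 4 of 17 for erythroid and megakaryocyte genes. They were 4 of 25 for myeloid, 1 of 12 for natural killer and 0 of 10 for liver genes.

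A promoter is opened by sequence-specific factors and by the transcription machinery, and open promoters usually carry a nucleosome-depleted stretch just upstream of the TSS. Mammalian promoters fall broadly into CpG islands, common at widely expressed genes and at developmental regulators, and CpG-poor promoters, common at tissue-restricted genes. At CpG islands, GC boxes (bound by Sp factors), CCAAT boxes (bound by NF-Y) and ETS sites are frequent elements.

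Sequences at the summits of 8 weak-only genes are shown because they span the kinds of promoter described below. Akap1 and Wdr74 were among the strongest, Hoxb5 stood for the Hox clusters, and Trib1 had many distal regions. Tcf7, Cd4 and Ebi3 are T cell genes, and Oas3 lay close to the IDR threshold. Each runs 5′ to 3′ on the gene's strand from the GRCm38.p6 genome (the assembly of mm10), within 75 bp of the summit and outside annotated untranslated regions. Capitals mark matches on either strand to 9 short motifs. They are TATAAA for the TATA box, GGGCGG for the GC box, CCAAT for the NF-Y box, CCGGAAG for ETS factors, GCATGCGC for NRF1, TGACGTCA for the cyclic AMP response element, TGANTCA for AP-1, TGTGGTT for Runx factors and CACGTG for the E box.
Akap1 (chr11:88864674-88864824, minus strand): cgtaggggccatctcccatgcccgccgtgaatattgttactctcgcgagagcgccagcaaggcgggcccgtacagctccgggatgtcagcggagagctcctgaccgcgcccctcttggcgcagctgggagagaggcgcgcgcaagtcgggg
Wdr74 (chr19:8735724-8735826, plus strand): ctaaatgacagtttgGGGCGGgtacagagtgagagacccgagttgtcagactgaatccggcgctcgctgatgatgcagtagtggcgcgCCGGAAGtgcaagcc
Hoxb5 (chr11:96303175-96303325, plus strand): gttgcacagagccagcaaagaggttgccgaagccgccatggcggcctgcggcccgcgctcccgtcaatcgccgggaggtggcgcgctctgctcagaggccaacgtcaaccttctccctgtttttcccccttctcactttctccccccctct
Trib1 (chr15:59648086-59648236, plus strand): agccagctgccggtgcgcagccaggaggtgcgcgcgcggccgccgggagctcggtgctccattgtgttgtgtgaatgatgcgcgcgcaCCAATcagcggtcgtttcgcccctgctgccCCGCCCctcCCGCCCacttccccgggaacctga
Tcf7 (chr11:52282572-52282664, minus strand): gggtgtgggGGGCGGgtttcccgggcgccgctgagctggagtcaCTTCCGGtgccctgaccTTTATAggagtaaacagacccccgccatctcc
Cd4 (chr6:124888222-124888303, minus strand): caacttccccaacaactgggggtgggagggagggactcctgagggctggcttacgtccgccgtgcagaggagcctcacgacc
Ebi3 (chr17:55952531-55952639, plus strand): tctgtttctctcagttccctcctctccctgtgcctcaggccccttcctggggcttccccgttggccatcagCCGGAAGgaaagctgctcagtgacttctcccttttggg
Oas3 (chr5:120777662-120777771, minus strand): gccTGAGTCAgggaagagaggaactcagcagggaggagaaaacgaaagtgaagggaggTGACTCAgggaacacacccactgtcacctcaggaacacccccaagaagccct
The Akap1 and Hoxb5 stretches held none of the 9 motifs, although both promoters were CpG-rich. Wdr74 and Tcf7 each held a GC box and an ETS motif, Tcf7 also a TATA box on the other strand, and Trib1 held GC boxes with a CCAAT box. Cd4 held no match, Ebi3 held an ETS motif, and Oas3 held the AP-1 motif TGANTCA at 2 positions as TGAGTCA and TGACTCA.

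Weak promoter regions were chosen by peak presence and IDR, so their signal, p and IDR are a description of the choice and no test was made on them. Of 15085 pseudoreplicated promoter regions, 27.0% were outside the thresholded list, against 57.0% of 34952 regions over 1000 bp from a TSS. The regions of weak-only genes had a median signal of 6.07 (quartiles 4.71 and 7.87, range 2.03 to 17.5), and thresholded promoter regions had a median of 15.4 (quartiles 11.02 and 19.8). Signal is the enrichment as the peak caller wrote it. Weak regions far from a TSS had a median of 5.74, and weak promoter regions at genes that also had a thresholded region a median of 4.15. Signal alone did not separate the lists: 492 thresholded promoter regions lay at or below the median of the weak-only regions, and 10 weak-only regions lay above the median of the thresholded ones.

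**Figure D1:**
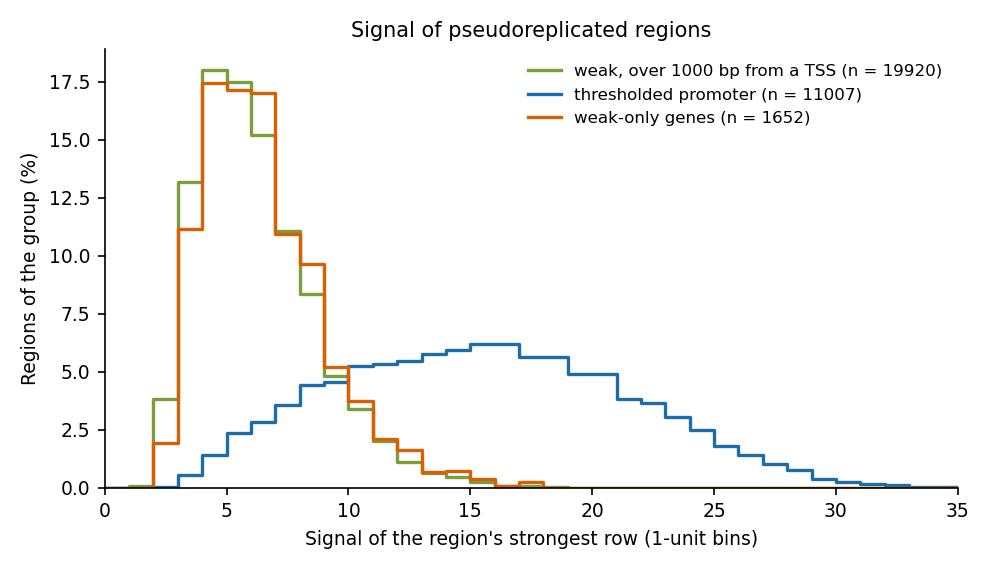
Share of regions (vertical axis, %) by signal of the strongest row (horizontal axis, 1-unit bins) for the regions of weak-only genes, thresholded promoter regions and weak regions over 1000 bp from a TSS. The curve of weak-only genes follows that of weak distal regions (medians 6.07 and 5.74), and thresholded promoter regions spread to higher values (median 15.4).

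Weak-only regions were narrower than thresholded promoter regions, with a median width of 390 bp against 833 bp, and 68.3% consisted of a single row against 26.5%. The caller's −log10 p had a median of 14.2 against 128. Still, 723 weak-only regions exceeded the lowest −log10 p among thresholded promoter regions, which was 15.4. All 1652 had a row in the ranked list, and 838 (50.7%) stood at the highest IDR of that list, 0.388. An IDR under 0.1 was held by 248 (15.01%), and the lowest was 0.0501.

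The ranked list gives each row a ranking value in each of the 2 inputs that were compared. Where these inputs came from is not stated in the labels or file descriptions used here. A region took both values from its overlapping ranked row with the lowest IDR, while signal and p came from its strongest row. Thresholded promoter regions less often consisted of a single row (26.5% against 68.3% of weak-only regions). The part of this choice of row in the ratios below was not tested. The larger value was a median 1.58 times the smaller at weak-only regions and 1.18 times at thresholded promoter regions, and the ratio passed 2 at 466 (28.2%) against 174 (1.58%). The contrast was widest among the strongest weak-only regions. With a −log10 p of 40 to 70, 49 of 52 weak-only regions (94.2%) had inputs that differed by over 2 times (median ratio 2.40), against 74 of 1829 thresholded promoter regions (4.05%, median ratio 1.29). From 20 to 30, the counts were 99 of 280 (35.4%) and 8 of 437 (1.83%). Below 10, 73 of 502 weak-only regions (14.5%) had such inputs. IDR is computed from these inputs, so the ratio belongs to the rule that chose the regions. It was close in other regions outside the thresholded list: the ratio passed 2 at 26.7% of weak regions over 1000 bp from a TSS and at 24.8% of the other weak promoter regions.

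**Figure D2:**
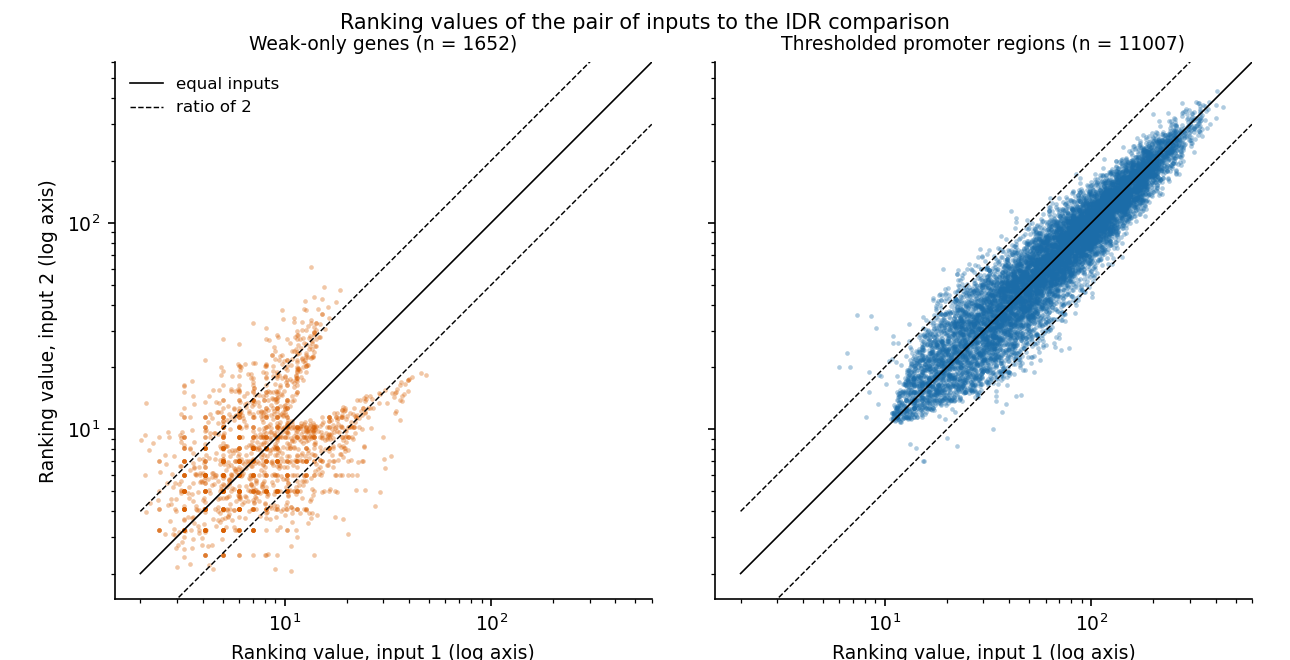
Ranking value in input 1 (horizontal, log axis) against input 2 (vertical, log axis) for the 1652 regions of weak-only genes and the 11007 thresholded promoter regions, 1 point per region. The solid line marks equal inputs and the dashed lines a ratio of 2. Of the weak-only regions 28.2% lie beyond the dashed lines, against 1.58% of thresholded promoter regions.

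The 12 genes with the highest signal show this form. Tmem270 had the highest signal, 17.5, with ranking values of 13.8 and 43.8. Akap1, an anchor of protein kinase A at the outer mitochondrial membrane, had a signal of 17.4, ranking values of 45.8 and 18.8, and IDR 0.0541. Dph7, an enzyme of diphthamide synthesis, had a signal of 17.2 with values of 40.1 and 17.5. Either input could be the higher. Wdr74, a nucleolar WD-repeat protein, had a signal of 14.96 with values of 15.2 and 42.6, and Rab39, a small GTPase of vesicle traffic, 15.5 with 15.1 and 36.1. The others were B230118H07Rik (17.4), the phospholipid flippase Atp8a2 (16.2), the butyrophilin-like Btnl2 (15.9), the small GTPase Rab39b (15.9), the Ras exchange factor Rasgrp4 (15.5), the kinase Sbk2 (15.5) and the doublecortin-like kinase Dclk1 (15.1). All 12 had inputs that differed by over 2 times, 7 had the summit within 50 bp of a TSS and 4 were CpG-rich. Across all weak-only genes, 161 had a signal of 10 or more, and 90 of those had such unequal inputs.

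At the other end, 15 genes had a signal under 3. The lowest were the chaperone Dnajb14 (2.03), the actin-binding calponin Cnn2 (2.12), Ankrd63 (2.30), Zfp982 (2.56) and Myb (2.64), all 5 at an IDR of 0.388. Myb, a transcription factor of blood progenitors, had ranking values of 4.33 and 4.93 and its summit on the TSS. It also had 5 thresholded distal regions, and the nearest thresholded region lay 1.425 kb from a TSS, just beyond the promoter window. Between these ends, 314 genes had a signal of 3 to 5 and 888 of 5 to 10. The summit lay within 100 bp of a TSS at 26.7% of genes below 3, 43.3% from 3 to 5, 49.7% from 5 to 10 and 57.1% from 10 up, and the median width went from 249 bp to 548 bp.

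Just outside the threshold lay Btc, which encodes the growth factor betacellulin (IDR 0.0501, signal 9.30), Hist1h3d, a replication-dependent histone gene (0.0501, 4.65), 2210011C24Rik (0.0501, 8.03), Angptl4 (0.0503 at 1 of its 2 regions) and Rrh (0.0504, 14.9). Just inside lay the promoter regions of Bag2 (0.0499, 8.38), Apcdd1 (0.0499, 14.4), Gdpd5 (0.0498, 9.07), Kazald1 (0.0497, 5.43) and Ttc39c (0.0496, 5.87). The ranges of signal on either side overlapped. The ranking values at the edge were near-equal for some, 10.91 and 10.99 at 2210011C24Rik, and unequal for others, 16.5 and 8.08 at Btc.

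The rule did not use where in the 1000 bp window the summit of a weak-only region lay. At weak-only genes 46.5% of summits (44.1 to 48.9) lay within 100 bp of a TSS, fewer than the 66.9% (66.0 to 67.8) of thresholded promoter regions, and the intervals did not overlap. Median distances were 123 and 57 bp. Summits lay upstream of the TSS in 56.6% and 71.6%, and over 500 bp away in 19.98% and 9.19%. The other weak promoter regions may not overlap the thresholded region at their gene, which usually sits at the TSS, so the rule bears on their position. Their values, a median of 404.5 bp with 23.4% within 100 bp, are a description only. No test was run, since regions of a single sample are not replicates.

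**Figure D3:**
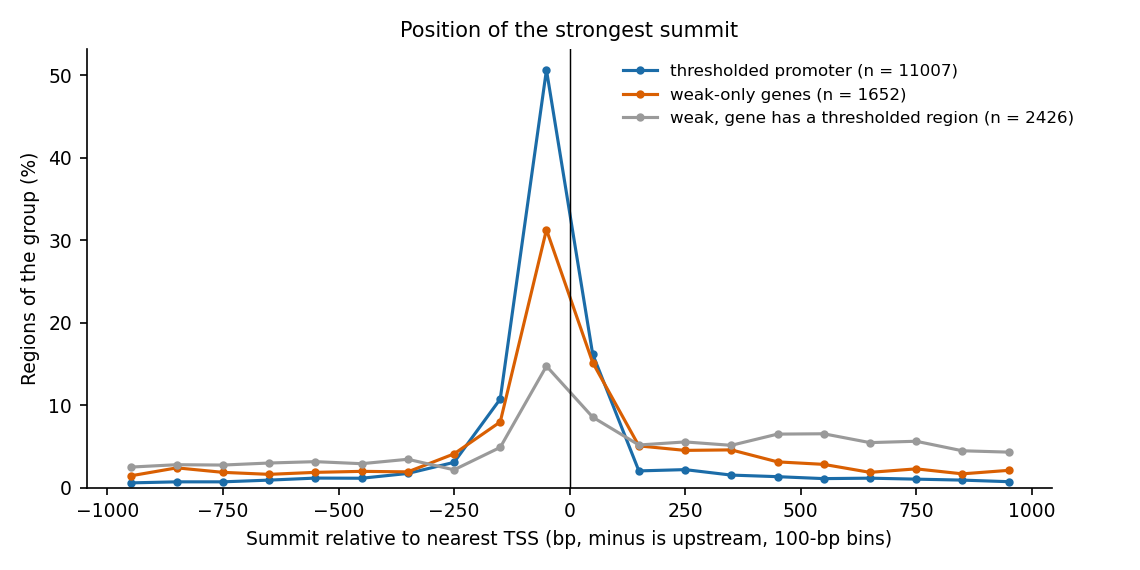
Share of regions (vertical axis, %) by position of the summit from the nearest TSS (horizontal axis, bp in 100-bp bins, minus is upstream). All 3 groups peak in the 100 bp upstream of the TSS, which holds 31.3% of weak-only regions and 50.7% of thresholded promoter regions. The other weak promoter regions had to lie clear of a thresholded region at the same gene.

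Most weak-only genes were weak at their annotated 5′ end, the most upstream TSS. The summit of the gene's strongest weak region lay within 1000 bp of the 5′ end at 1076 genes and near another TSS at 302. At 1235 genes a TSS of a coding transcript lay within 1000 bp of that summit. Weaker regions of the same gene were not used for these counts. A single weak region was found at 1110 genes and 2 or more at 268. Aplp1, an amyloid precursor-like protein of neurons, had the most with 5 regions of signal 4.72 to 7.26 spread over its TSSs. Map4k4, a stress-pathway kinase, had 4. Near its 5′ end lay regions of signal 5.02 and 3.60. The strongest lay 122 kb downstream at an internal TSS (signal 14.9, IDR 0.0513). The strongest Map4k4 region thus was not at the gene's 5′ end. Gtf2ird1, Rnd2, Tap2 and Hlx also had 4 regions each. Those of Tap2, a subunit of the peptide transporter for MHC class I, had signals of 3.34 to 5.73, and those of Hlx, a homeobox factor of Th1 cells, 2.77 to 5.34. The strongest region was shared with another weak-only gene at 64 genes, so these genes are not separate observations.

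Promoter CpG content, which the rule did not use, stood between that of the other classes. A promoter was called CpG-rich where the 500 bp at the gene's 5′ end had a CpG observed/expected ratio of at least 0.6 and a GC fraction of at least 0.5. This held for 698 weak-only genes (50.7%, 48.0 to 53.3). It held for 75.6% (74.7 to 76.4) of the 10774 genes with a thresholded promoter region, which are 49.1% of all genes, and for 16.4% (15.7 to 17.1) of the 9786 genes with neither. Median observed/expected ratios were 0.617, 0.791 and 0.236. Taken from the other side, a weak region was present at 698 of 2301 CpG-rich genes without a thresholded region (30.3%, 28.5 to 32.2) and at 680 of 8863 other such genes (7.67%, 7.14 to 8.24). CpG-rich weak-only genes had wider regions (median 466 bp against 371 bp) and more summits within 100 bp of a TSS (54.6% against 42.9%). Their median signals were close, 6.59 and 6.41.

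**Figure D4:**
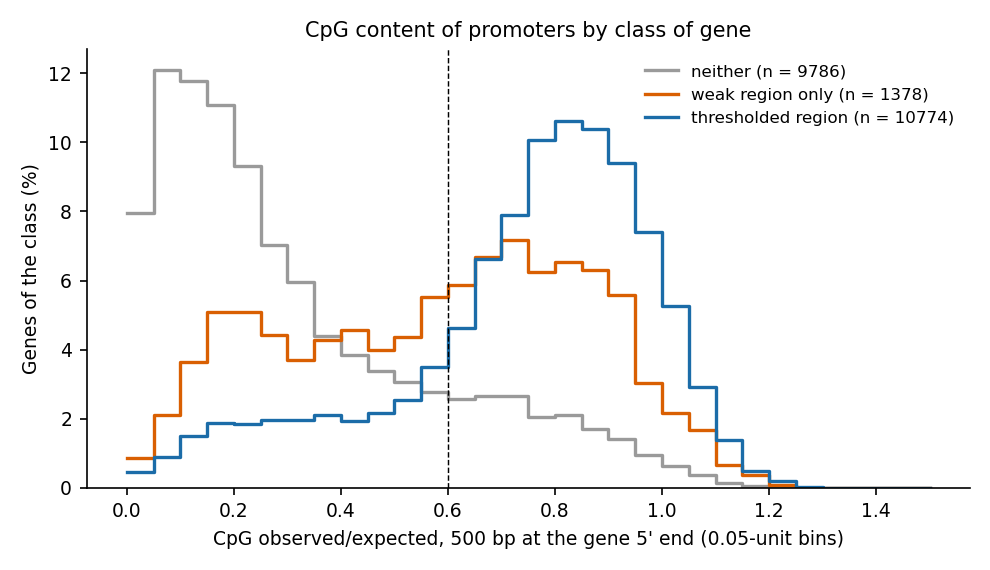
Share of genes (vertical axis, %) by CpG observed/expected ratio of the 500 bp at the 5′ end (horizontal axis, 0.05-unit bins) for genes with a weak region only, a thresholded region or neither. The dashed line marks 0.6. Weak-only genes spread over low and high ratios (median 0.617), between genes with neither (0.236) and genes with a thresholded region (0.791).

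CpG-rich weak promoters held GC boxes at a share whose interval overlapped that of thresholded ones, and ETS and CCAAT motifs at lower shares. Motifs were sought on both strands within 100 bp of the summit, none of the 9 contains another, and a match describes letters, not binding. Among regions that were CpG-rich at the summit, GGGCGG was present at 66.6% (63.3 to 69.8) of 821 weak-only and 68.9% (67.9 to 69.95) of 8048 thresholded promoter regions. The ETS motif CCGGAAG was present at 7.19% (5.61 to 9.16) against 21.7% (20.9 to 22.7), and CCAAT at 14.98% (12.7 to 17.6) against 35.2% (34.2 to 36.3). The core of the NRF1 site, GCATGCGC, gave 2.68% (1.78 to 4.02) against 5.11% (4.65 to 5.61), and the cyclic AMP response element TGACGTCA gave 2.44% (1.58 to 3.73) against 4.30% (3.88 to 4.76). The E box CACGTG gave 6.33% (4.86 to 8.21) against 9.37% (8.75 to 10.02).

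The difference in ETS and CCAAT motifs was also present where the summit lay close to the TSS. With CpG-rich regions whose summit was within 100 bp of a TSS, CCGGAAG was at 8.30% (6.15 to 11.1) of 482 weak-only regions and 25.03% (23.9 to 26.1) of 5977 thresholded ones. CCAAT was at 17.4% (14.3 to 21.1) and 34.4% (33.3 to 35.7), and GGGCGG at 73.2% (69.1 to 77.0) and 69.2% (68.0 to 70.3). A fixed window at the gene's 5′ end, 250 bases before to 50 after, does not depend on where a summit was called. There, among CpG-rich genes, CCGGAAG was present at 8.02% (6.23 to 10.3) of weak-only genes, 22.7% (21.8 to 23.6) of thresholded genes and 4.24% (3.36 to 5.34) of genes with neither. CCAAT was present at 27.8% (24.6 to 31.2), 40.9% (39.8 to 41.9) and 29.3% (27.1 to 31.6), and GGGCGG at 75.4%, 72.1% and 71.7%. The CCAAT intervals of weak-only genes and genes with neither overlapped, and for CCGGAAG weak-only genes lay above genes with neither and below thresholded genes.

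These shares also differed with signal inside the thresholded list. CpG-rich thresholded promoter regions with a signal under 10 held CCAAT at 17.4% (15.3 to 19.6) and CCGGAAG at 11.9% (10.2 to 13.9), against 38.4% and 23.5% with a signal of 10 or more. Weak-only regions under 10 gave 14.7% (12.3 to 17.4) and 6.81% (5.22 to 8.84). For CCAAT the intervals of the low-signal groups overlapped, and for CCGGAAG they did not. The 72 CpG-rich weak-only regions with a signal of 10 or more gave 18.1% (10.9 to 28.5) and 11.1% (5.74 to 20.4). The part of signal in the motif difference was not tested.

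Over all weak-only regions, whatever their CpG content, GGGCGG was at 44.6%, CCAAT at 18.6%, CCGGAAG at 6.42% and TATAAA at 3.27%. In windows of the same length at the 5′ ends of all genes the shares were 40.02%, 28.2%, 9.60% and 8.08%. Those windows are not centred on summits. At summits of thresholded promoter regions TATAAA was at 2.96% (2.66 to 3.30), and the weak-only interval (2.51 to 4.24) overlapped this. The fixed 5′ end window gave 9.72% (8.27 to 11.4) for weak-only, 7.22% (6.75 to 7.73) for thresholded and 12.6% for all genes. The intervals of weak-only and thresholded genes overlapped within CpG-rich genes (6.16% and 5.69%) and within the others (13.4% and 11.96%). The AP-1 motif TGANTCA was at 5.87% (4.84 to 7.11) of weak-only regions, 3.76% (3.42 to 4.13) of thresholded promoter regions and 11.7% (11.2 to 12.1) of weak regions far from a TSS, against 4.11% at all 5′ ends. In CpG-rich promoters this motif was more frequent at weak-only than at thresholded promoters near the TSS, the other way from ETS and CCAAT. At the fixed 5′ end window it was present at 5.87% (4.36 to 7.87) of CpG-rich weak-only genes, 3.32% (2.95 to 3.73) of thresholded genes and 3.56% (2.75 to 4.58) of genes with neither. The intervals of weak-only genes and genes with neither overlapped there. Within 100 bp of a TSS it was at 3.94% (2.54 to 6.07) of weak-only and 2.06% (1.73 to 2.45) of thresholded CpG-rich regions. Over all CpG-rich regions the shares were 3.29% (2.27 to 4.74) and 2.25% (1.95 to 2.60), with overlapping intervals. With a signal under 10 they were 3.07% (2.05 to 4.57) and 3.01% (2.18 to 4.14). With a signal of 10 or more they were 5.56% (2.18 to 13.4) and 2.12% (1.80 to 2.49), and these intervals overlapped as well. The Runx motif TGTGGTT was at 4.48% (3.58 to 5.59), 3.53% and 11.2%, against 3.08% at all 5′ ends. Among regions that were not CpG-rich, TGANTCA was at 8.42% of weak-only and 7.87% of thresholded promoter regions, and TGTGGTT at 7.34% and 8.04%.

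Many weak-only genes had strong regions nearby. A thresholded distal region, over 1000 bp from every TSS and given to the gene whose TSS was closest, up to 100 kb away, was present at 472 weak-only genes (34.3%, 31.8 to 36.8). The share was 39.7% (38.7 to 40.6) for thresholded genes and 13.3% (12.6 to 14.0) for genes with neither. At least 3 such regions were found at 7.69% (6.40 to 9.22), 11.9% and 1.70%. The nearest thresholded region lay a median of 15.6 kb away for weak-only genes and 77.2 kb for genes with neither, and at 97 weak-only genes it lay within 2 kb of a TSS, just beyond the promoter window. Weak-only genes were longer than genes with neither (median 21.8 kb against 10.3 kb) and had more TSSs (median 4 against 2). The part of length and TSS number in these shares was not tested.

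The 8 genes with the most distal regions had varied known functions. St6galnac5, a sialyltransferase, and Trib1, a pseudokinase that directs protein turnover, had 12 each. Ubash3b, a phosphatase that dampens T cell receptor signals, and Fli1, an ETS factor, had 11 each. Lpp, Trpm1 and the Notch coactivator Maml3 had 9 each, and Map4k4 had 8. At the promoters of these genes the signal was 3.12 at Trib1, 3.71 at Fli1, 4.05 at St6galnac5, 4.42 at Maml3, 5.35 at Ubash3b, 5.86 at Trpm1 and 7.31 at Lpp. For several, a thresholded region lay just beyond the promoter window. The nearest was 1.377 kb from a TSS of Trpm1, 1.393 kb for Ubash3b, 1.635 kb for Maml3, 1.718 kb for Fli1 and 1.725 kb for Trib1. It was 3.94 kb away for Map4k4, 11.6 kb for St6galnac5 and 15.4 kb for Lpp. Of all weak-only genes, 7.04% had a thresholded region within 2 kb of a TSS. Trib1 had a wide region of 1134 bp with ranking values of 17.9 and 11.9, and Fli1 ranking values of 8.49 and 8.96. Among these 8 genes Trpm1 and Map4k4 had inputs that differed by over 2 times, as did 28.2% of all weak-only regions.

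Defining T cell genes were among the members. Weak-only shares, beside 6.28% of all genes, were 10% (2.79 to 30.1) of the pan-T list, 5.26% (0.935 to 24.6) of the regulatory T cell markers and 15% (5.24 to 36.04) of their effector genes. All 3 intervals include 6.28%. Cd4, the coreceptor of helper and regulatory T cells, had a signal of 4.51 with its summit 7 bp upstream of the TSS, ranking values of 22.7 and 6.92 and an IDR of 0.234. Tcf7, a factor of naive and memory-like T cells, had a signal of 3.91 with values of 7.19 and 5.10, an IDR of 0.388 and 8 thresholded distal regions, the closest 6.67 kb from a TSS. Its summit lay 18 bp upstream of a TSS inside the gene. Cd4 and Tcf7 were the 2 pan-T genes of 20 without a thresholded promoter region. Cd4 thus was uneven between inputs and Tcf7 was low in both.

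Of 19 regulatory T cell markers, Ebi3 was the only weak-only gene with the 1000 bp window. With a window of 500 bp the share was 15.8%. Ebi3, a subunit of interleukin-35 and interleukin-27, had a signal of 8.83 with values of 9.91 and 15.3 and an IDR of 0.133. Foxp3 itself had a thresholded promoter region within the 1000 bp window. The nearest edge of a thresholded region lay 534 bp from a Foxp3 TSS, so none covered a TSS and a window of 500 bp leaves it out. Tnfrsf18 had neither at its promoter but 4 thresholded distal regions, the nearest 2.23 kb away. Among 20 effector genes of regulatory T cells, 13 were thresholded and 3 weak-only. These were Il12a, the other subunit of interleukin-35 (8.10, values 3.27 and 16.3, 3 distal regions), Fgl2, a secreted suppressive mediator (6.36, values 21.02 and 10.3), and Lag3, an inhibitory receptor that binds MHC class II (3.68, values 3.48 and 8.12, 3 distal regions). All 3 had inputs that differed by over 2 times, as did 28.2% of all weak-only regions. The Lag3 summit lay 1090 bp downstream of the gene's 5′ end, with no TSS of a coding transcript within 1000 bp. A thresholded region lay 1.781 kb from a Lag3 TSS. Il10, the suppressive cytokine, had neither at its promoter and 4 distal regions.

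Lists of other T cell states held 1 to 4 weak-only genes each. Of 12 Th1 genes, 6 were thresholded and 4 weak-only: Il18rap, a chain of the interleukin-18 receptor (11.1), the chemokine receptor Cxcr3 (5.55), Hlx (5.34) and Tbx21, the T-bet gene (5.30, ranking values 3.55 and 9.97, summit 658 bp upstream). Tbx21 had a further weak region 29 bp upstream of its TSS, with a signal of 3.88 and near-equal ranking values of 5.10 and 5.39. Of 15 naive T cell genes, 10 were thresholded and 3 weak-only, among them Igfbp4 (3.93) and Tcf7. The Igfbp4 summit lay 1926 bp downstream of the gene's 5′ end, with no TSS of a coding transcript within 1000 bp. Of 14 CD8 and cytotoxic genes, 6 were thresholded and 3 weak-only: the granzyme Gzmk (7.42), Nkg7 (4.79) and Eomes (4.34), while Cd8a had neither. With so few genes per list the intervals are wide: 33.3% (13.8 to 60.9) for the Th1 genes, 3 of 15 (7.05% to 45.2%) for the naive genes and 21.4% (7.57 to 47.6) for the CD8 and cytotoxic genes. All 3 intervals lie above the 6.28% of all genes, in lists chosen with earlier results known. Of the Th2 genes, 10 of 12 had neither, among them Il4, and Il17rb (5.27) alone was weak-only. Of 15 Th17 and follicular helper genes, Ccr6 (4.99) was weak-only, 8 had neither, among them Il17a, and 6 were thresholded. The weak-only intervals of Th2 (1.49% to 35.4%) and of Th17 and follicular helper genes (1.19% to 29.8%) include 6.28%.

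Receptors of the innate and chemokine systems gave further members. Beside 6.28% of all genes, the weak-only share was 17.4% (6.98 to 37.1) of chemokine receptors. It was 16% (6.40 to 34.7) of Toll-like receptor and inflammasome genes. For interleukin receptors it was 8.11% (2.80 to 21.3), and for interferon response genes 4.76% (0.846 to 22.7). The chemokine receptor and Toll-like receptor intervals lie above 6.28%, in lists chosen with earlier results known, and the others include it. Of 23 chemokine receptors, 8 were thresholded and 4 weak-only: Cx3cr1 (9.78), Cxcr3, Ccr6 and Ccr2 (4.39). Of 25 Toll-like receptor and inflammasome genes, 10 were thresholded and 4 weak-only: Tlr2 (8.78), Tlr7 (8.34), Tlr12 (7.26) and Tlr3 (6.10). Of 37 interleukin receptors, 21 were thresholded and 3 weak-only, the highest Il1rl2 (12.9). Of 21 interferon response genes, 17 were thresholded and only Oas3, which makes the activator of RNase L, was weak-only, with a signal of 4.45, ranking values of 12.02 and 10.7 and an IDR of 0.0511, close to the threshold.

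Defining genes of other blood lineages were mostly without a region. Of 25 myeloid genes, 4 were thresholded, 19 had neither and 2 were weak-only, Tlr2 and Cd14, the coreceptor for lipopolysaccharide (8.38, ranking values 9.12 and 14.0, IDR 0.150, summit 680 bp downstream of a TSS). Of 20 B cell genes, Cd22 (5.74) and Cd79b (5.40) were weak-only and 12 had neither. The Cd22 summit lay 7063 bp downstream of the gene's 5′ end, with no TSS of a coding transcript within 1000 bp. Of 17 erythroid and megakaryocyte genes, 10 had neither and 3 were weak-only, among them Epor, the erythropoietin receptor (7.76), and Tal1, a transcription factor of blood progenitors (5.22). Of 12 natural killer genes, 11 had neither and none was weak-only, while a window of 2500 bp gave a weak-only share of 16.7%. Whether reads from other cells contributed to the weak regions was not tested.

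Among CpG-island regulators of development, few had a thresholded promoter region. Of 39 Hox genes, which set position along the body axis, 5 were thresholded, 12 weak-only and 22 had neither. The 12 were 30.8% of the list against 6.28% of all genes, and 12 of the 34 without a thresholded region (35.3%) against 12.3% of all such genes. CpG-rich promoters were held by 28 of the 39. Of the 23 CpG-rich ones without a thresholded region, 10 were weak-only, against 30.3% of all such CpG-rich genes. Hoxb5 had the highest signal (8.44) with near-equal values of 10.3 and 11.4 and an IDR of 0.0568. Hoxb4 had 8.10, Hoxc9 6.47 and Hoxa9 5.50. Hoxc10 and Hoxc5 had 1 region in common (5.94, values 13.0 and 3.92). Its summit lay 182 bp upstream of a Hoxc10 TSS and 829 bp upstream of a Hoxc5 TSS. Hoxc5 and Hoxa9 had no TSS of a coding transcript within 1000 bp of the summit, yet both are counted among the 12. The members thus came from all 4 clusters, which also held Hoxd9 and Hoxd8.

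Of 81 other developmental factors, 4 were thresholded, 13 weak-only and 64 had neither. Tbx1, a T-box factor of the pharyngeal arches, had a signal of 12.2 with ranking values of 8.09 and 30.8. Dlx1 had 10.2, Lhx2 8.96, and Zic1 and Zic4 shared 1 region of 7.74. The 13 were 16.9% of the 77 without a thresholded region, and 8 of the 57 CpG-rich ones were weak-only, against 30.3% of all such genes. Of 56 Wnt, Bmp, Fgf and related ligands, 7 were thresholded and 7 weak-only, led by Fgf15 (9.68), Wnt3 (8.17) and Wnt10b (6.25). Of 20 neuron and glia genes, 4 were weak-only, all CpG-rich: the synaptic vesicle protein Syp (14.2), the glutamate receptor Grin1 (8.10), the tubulin Tubb3 (6.83) and Gad2 (4.72). Of 12 stem and progenitor genes, 1 was thresholded and 4 weak-only: Hlf (9.28), Ly6a (5.96), Hoxa9 and Lmo2 (5.44). Beside 6.28% of all genes, weak-only shares were 16.0% (9.63 to 25.5) of the developmental factors and 12.5% (6.19 to 23.6) of the ligands. They were 20% (8.07 to 41.6) of neuron and glia genes and 33.3% (13.8 to 60.9) of stem and progenitor genes. The ligand interval includes 6.28% and the others lie above it, in lists chosen with earlier results known.

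Genes of other tissues gave scattered members. Of 39 integrin and claudin genes, 6 were weak-only (15.4%, 7.25 to 29.7, against 6.28% of all genes), all CpG-rich. The strongest were the laminin receptor chain Itga3 (10.7), Cldn23 (10.3, IDR 0.0508) and Itga8 (8.44). Of 47 ion channels, 4 were weak-only. Of 15 muscle genes, the calcium release channel Ryr1 (8.77, IDR 0.0577) was weak-only, and of 15 epithelial genes the adhesion molecule Epcam (7.52) and Esrp1. The endothelial and stromal list gave Egfl7 of 16 genes, the germline list the meiotic cohesin Rec8 of 32, and the chemokine list the CXCR3 ligand Cxcl9 (8.10) of 29. No liver gene was weak-only. The interval of the integrin and claudin list lies above the share of all genes, in lists chosen with earlier results known. Those of the other lists in this paragraph include it.

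**Figure D5:**
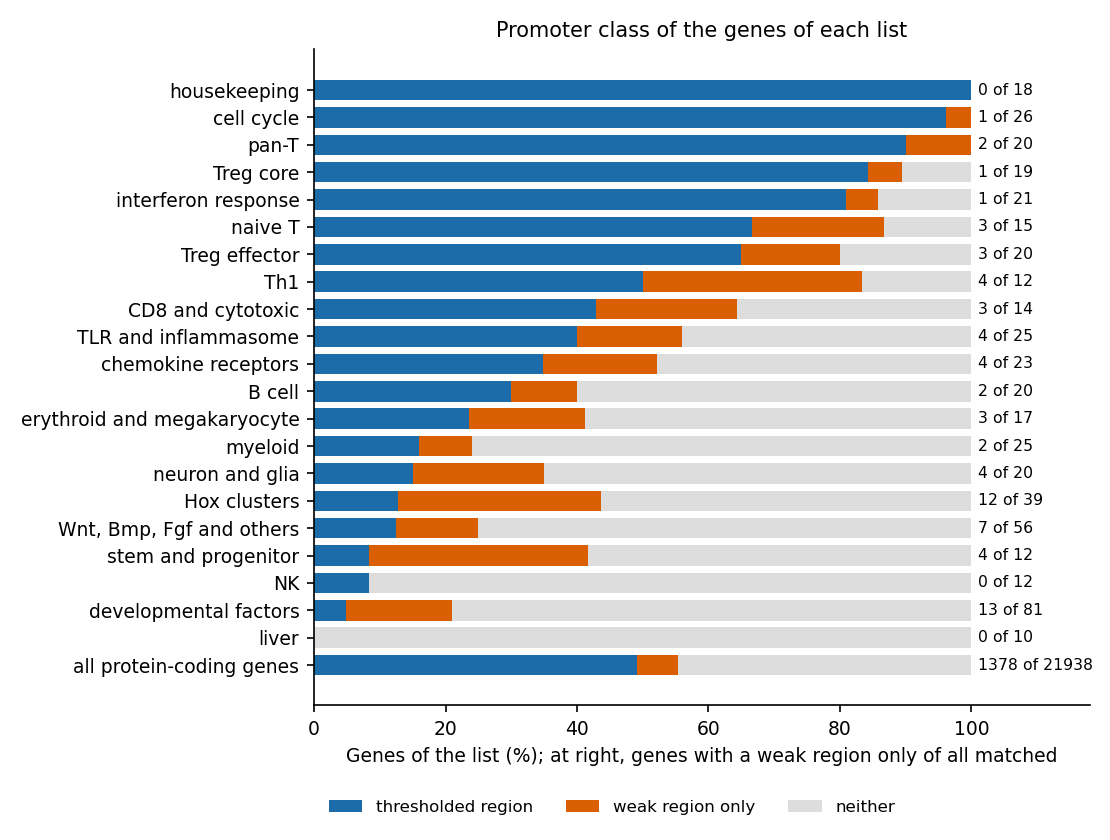
Share of each gene list (horizontal axis, %) with a thresholded promoter region, a weak region only or neither, with the number of weak-only genes of all matched genes at the right and all 21938 protein-coding genes at the bottom. Housekeeping genes are all thresholded and liver genes all have neither, and the Hox, Th1 and stem cell lists hold 12 of 39, 4 of 12 and 4 of 12 weak-only genes.

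Lists of genes used in most cells left few genes that could be members. All 18 housekeeping genes were thresholded, and of 26 cell cycle genes only the kinase inhibitor Cdkn1a was weak-only (4.81), with its summit 13 bp upstream of a TSS inside the gene. Of 67 histone cluster genes 62 were thresholded and Hist1h3d was weak-only, 1 of 5 without a thresholded region. The weak-only intervals of the 3 groups, 0% to 17.6%, 0.682% to 18.9% and 0.264% to 7.98%, all include the 6.28% of all genes. At the closed end, 6 of 1135 olfactory receptors (0.529%) and 0 of 331 vomeronasal receptors were weak-only. Zinc finger genes named Zfp were mostly thresholded (282 of 394), with 32 weak-only (8.12%, 5.81 to 11.2), led by Zfp11 (11.5) and Zfp819 (11.1). Solute carriers gave 19 of 371 (5.12%, 3.30 to 7.86), led by Slc25a20 (10.9, IDR 0.0515), and Tmem genes 22 of 242 (9.09%, 6.08 to 13.4), led by Tmem270 and Tmem25 (14.5). Clustered protocadherins, which give neurons their surface identity, gave 6 of 57 (10.5%, 4.91 to 21.1), all of the gamma cluster. Of these 4 families the intervals all include 6.28%.

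Weak-only genes were present on every chromosome but Y, where 0 of 183 genes qualified. Beside the 6.28% of all genes, chromosome 11 had the highest share, 143 of 1639 (8.72%, 7.45 to 10.2), and among the others chromosome 14 had the lowest, 45 of 902 (4.99%, 3.75 to 6.61). On the X chromosome the share was 5.06% (3.84 to 6.65). The intervals of chromosomes 14 and X include the share of all genes.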

How the data were processed

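ATAC-seq of 2 libraries of activated regulatory T cells was analysed through 3 deposited peak lists on mm10, derived from 1 alignment per the accompanying README. Not given in the sources used here are the aligner, peak caller, read filters and any adjustment for the transposase. The signal that the authors deposited is the caller's enrichment per peak, with its reference not given. The deposited −log10 columns hold the caller's p-value and the global IDR. The deposited ranking score of each of 2 inputs is on the scale of −log10 p, and a display score, which runs to 1000, was not used for results. These are the authors' own per-peak values.

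Rows overlapping by 1 bp or more were merged. GENCODE M21 gave 21938 protein-coding genes on the main chromosomes. A region took the lowest IDR of the ranked rows that overlapped it, and the 2 ranking values of that same row. Members and the 31 gene lists and 20 name families (762 of 767 list genes matched) were chosen with earlier results of these data known, so no test was made and shares carry Wilson 95% intervals. Genes named are the 12 strongest, 5 weakest, 5 on each side of the threshold, up to 6 of each list, the 8 with most distal regions, the 6 with most weak regions, 10 genes in every case and the 2 strongest of families with 10 or more members, fewer where length required it, and a few of these genes are not reported here. Hoxd8, Hoxd9 and the gamma protocadherins were added after their values were seen. Alternatives covered promoter window, threshold, overlap, merging, TSS choice, CpG limits, assignment and motif windows. Python 3.11.15, numpy 2.4.6, pandas 2.3.3 and scipy 1.17.1 were used, and the classes were tested on simulated regions.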

Additional observations from a re-analysis of the deposited data

How the results depend on the processing

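Of 159 values under alternatives, 125 stayed within their interval or within 1.5 times the count. These include the 51 lists and families, of which 49 stayed with a window of 500 bp and 47 with 2500 bp. Many of these are small with wide intervals, so the pooled count says little about stability. All 6 values under a thresholded list at an IDR of 0.01 or below moved. The number of weak-only genes was 1258 with a promoter window of 500 bp, 1552 with 2500 bp, 1302 with 1 TSS per gene and 2143 with a thresholded list at an IDR of 0.01 or below. That stricter list gave a median signal of 6.75, a median IDR of 0.163, a CpG-rich share of 54.5%, a median distance of 107 bp and a share with a distal region of 28.3%. With 500 bp the last 3 were 53.6%, 77 bp and 37.5%, with 2500 bp 46.5%, 284.5 bp and 28.7%, and with 1 TSS per gene 57.1%, 164 bp and 40.2%. Unmerged rows gave a median signal of 5.40, a median IDR of 0.211 and a median distance of 171 bp. CpG limits of 0.75 and 0.55 lowered the CpG-rich share to 31.0%, against 54.3% for thresholded genes and 8.96% for genes with neither. Motif windows of 50 bp on each side hold fewer bases and gave TATAAA 1.69%, GGGCGG 32.9%, CCAAT 12.05%, CCGGAAG 4.90%, GCATGCGC 1.09%, TGANTCA 3.93%, TGTGGTT 2.54% and CACGTG 4.06%. Weak-only shares fell to 0% for chemokines (list and name family) with 500 bp, and for Th17 and follicular helper, cell cycle and histone genes with 2500 bp, which gave 3.58% for predicted genes. Others rose, the regulatory T cell markers from 5.26% to 15.8% with 500 bp and natural killer genes from 0% to 16.7% with 2500 bp, both within the first interval. The motif shares near a TSS and at 5′ ends were added after the data were seen. No paired analysis was possible because the lists pool both libraries, and no library could be left out for the same reason. The unknown depth limits every statement that a region is absent.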
